A study of Mus musculus with 9 samples.

Results

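The genes described here are 10 cyclic nucleotide phosphodiesterases outside the PDE4 family: Pde1b, Pde2a, Pde3a, Pde3b, Pde5a, Pde7a, Pde7b, Pde8a, Pde8b and Pde10a. They were taken by symbol from a table of 35673 genes, and all 10 passed the filter on low counts that left 21341 genes. The cells were basophils from wild-type C57BL/6J mice, obtained by keeping bone marrow with 0.3 ng/mL of IL-3, a basophil growth factor, over 7 days and selecting for the surface protein CD49b on magnetic beads. Each library came from 10000 cells kept for 4 hours in 1 of 3 conditions, with 3 libraries per condition. The groups are called resting (PBS plus the solvent DMSO), stimulated (10 ng/mL each of IL-33 and IL-3, plus DMSO) and difamilast (the same cytokines plus 3 µM difamilast, a selective PDE4 inhibitor). Whether the 3 libraries of a group stem from different cultures or mice is not in the labels, and p-values therefore reflect a spread that may be technical. CD49b is not unique to basophils, and markers of other cells are given below.

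Phosphodiesterases end cyclic nucleotide signals by hydrolysing cAMP or cGMP. In leukocytes PDE4 enzymes carry much of the cAMP hydrolysis, and cAMP restrains the release of mediators and cytokines by basophils and mast cells. The other families divide the work by substrate and by regulator. The PDE7 and PDE8 enzymes act on cAMP and are not blocked by classical PDE4 inhibitors. PDE3 enzymes hydrolyse cAMP and are slowed by cGMP, PDE5A is specific for cGMP, and PDE1B, PDE2A and PDE10A accept both nucleotides, PDE1B under control of calcium and calmodulin and PDE2A under stimulation by cGMP. The measurements below are of their transcripts, not of enzyme activity.

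The libraries held 6261446 to 14795353 counts in resting, 11798711 to 38098584 in stimulated and 24812305 to 30299575 in difamilast cells, of which the 10 genes together took 2045 to 4378, 1575 to 5110 and 3706 to 5082. Levels are given as CPM, the usual normalised read count relative to library totals scaled by TMM, and as CPM per kilobase of the longest GENCODE basic transcript where genes are compared with each other. The scaling factors ran from 1.23 to 1.32 for resting, from 0.871 to 0.892 for stimulated and from 0.851 to 0.916 for difamilast cells. With library totals alone, the median log2 fold change of all tested genes would be -0.47 for stimulated against resting cells and -0.50 for difamilast against resting cells, against 0.06 and 0.01 after TMM. Basophil genes were abundant: the 10 basophil markers summed to between 6675 and 7657 CPM in resting cells, 11324 and 12057 in stimulated cells and 12782 and 13783 in difamilast cells. Markers of other cells were also present, and bulk counts cannot tell fewer cells of a type from less RNA per cell.

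To show sequence at the genes that carry the findings, the 250 bases before the RefSeq start site (GRCm38.p6) are printed for Pde7b, Pde5a, Pde8b and Pde8a. Pde7b had the largest fall with stimulation among the 10 genes, Pde5a and Pde8b changed with difamilast, and Pde8a is the partner of Pde8b. Where several starts are listed, as for Pde8b with 5, the most upstream was used, and Pde7b, Pde8a and Pde5a have 1 each in the table. The windows are chr10:20548329-20548578 on the minus strand (Pde7b), chr7:81213015-81213264 on the plus strand (Pde8a), chr3:122728908-122729157 on the plus strand (Pde5a) and chr13:95250337-95250586 on the minus strand (Pde8b). Capitals mark matches, on either strand, to any of the motifs searched: the cAMP response element TGACGTCA, its core TGACG (which lies within the full element), the STAT motif TTCNNNGAA and the NF-kB consensus.
Pde7b: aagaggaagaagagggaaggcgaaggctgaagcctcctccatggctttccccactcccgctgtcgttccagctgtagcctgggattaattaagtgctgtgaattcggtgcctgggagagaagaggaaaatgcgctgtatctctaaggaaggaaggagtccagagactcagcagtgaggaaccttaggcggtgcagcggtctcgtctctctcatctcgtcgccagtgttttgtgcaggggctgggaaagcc
Pde8a: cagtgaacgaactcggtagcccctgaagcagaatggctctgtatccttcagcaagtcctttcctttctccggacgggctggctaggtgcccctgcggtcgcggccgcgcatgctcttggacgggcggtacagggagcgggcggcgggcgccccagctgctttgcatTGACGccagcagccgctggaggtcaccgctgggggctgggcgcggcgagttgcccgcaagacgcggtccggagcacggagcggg
Pde5a: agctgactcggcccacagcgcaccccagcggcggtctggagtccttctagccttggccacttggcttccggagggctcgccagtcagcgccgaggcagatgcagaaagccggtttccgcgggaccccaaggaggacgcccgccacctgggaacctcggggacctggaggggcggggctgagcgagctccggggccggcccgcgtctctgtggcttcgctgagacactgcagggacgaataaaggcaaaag
Pde8b: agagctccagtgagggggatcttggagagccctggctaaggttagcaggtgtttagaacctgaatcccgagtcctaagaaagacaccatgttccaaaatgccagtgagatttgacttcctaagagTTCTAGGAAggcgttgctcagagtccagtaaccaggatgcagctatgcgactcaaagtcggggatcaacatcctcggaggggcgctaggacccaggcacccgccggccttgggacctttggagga

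The Pde8a window held 1 TGACG core, 84 bases before the start, and the Pde8b window 1 STAT motif, 125 bases before it, which also lies 157 and 172 bases before the next 2 Pde8b starts. The windows of Pde7b and Pde5a held none of these letters. In GENCODE, Pde7b starts upstream of its window, at 20725078 on the minus strand, so that window lies within the annotated gene. Sequence before that start was not searched. The GENCODE start of Pde5a, at 122728947, falls inside its window, most of which lies within the annotated gene. Of 32817 windows of the same length in the table, 17.7% held the core, 1.55% the full element, 7.01% the STAT motif and 3.90% the NF-kB consensus. Among the members, 7 of 10 matched the table, with 18 starts in all. The most upstream Pde1b window also held 1 STAT motif, 189 bases before its start. No window of the 18 held the full cAMP response element or the NF-kB consensus. Pde3a, Pde3b and Pde7a had no entry. These matches are letters in a window and were not tested as binding sites.

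In resting basophils Pde3b was the most abundant of the 10 transcripts. Per kilobase it lay at 21.9 ± 3.48 CPM (SD, n = 3), which overlapped with Pde6d, a gene outside the 10, at 20.2 ± 6.52, and it made up 47.4% ± 3.24 of the summed level of the 10 genes. Pde7a followed at 5.82 ± 0.888 CPM per kilobase, then Pde1b at 4.94 ± 0.597 and Pde7b at 4.50 ± 0.439, and the ranges of neighbours in this order overlapped. Pde8a at 3.43 ± 0.379 and Pde5a at 3.31 ± 0.516 formed a lower pair that overlapped with each other and not with Pde7b. Pde2a lay at 1.31 ± 0.347 CPM per kilobase, below that pair without overlap. Pde8b (0.367 ± 0.123), Pde3a (0.331 ± 0.119) and Pde10a (0.131 ± 0.117) closed the order, each overlapping with the next. This order depends on the transcript lengths used. Not divided by length, Pde3b and Pde7a again led, and Pde5a (25.2 ± 3.92 CPM) lay above Pde7b (18.6 ± 1.81) and Pde1b (16.1 ± 1.94). Likewise Pde3a (4.08 ± 1.46 CPM) lay above Pde8b (1.55 ± 0.523).

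The order per kilobase differed in the other groups. In stimulated cells Pde3b still led the 10 genes, at 8.58 ± 0.373 CPM per kilobase, followed without overlap by Pde1b (5.06 ± 0.198) and then by Pde7a (3.99 ± 0.433) and Pde5a (3.87 ± 0.407), whose ranges overlapped. Pde7b had moved below Pde8a (1.39 ± 0.183 against 2.47 ± 0.343, no overlap). In difamilast cells Pde5a stood next to Pde3b, at 5.69 ± 0.356 CPM per kilobase against 10.2 ± 0.346, above Pde1b (4.97 ± 0.180) without overlap. Pde8b was then the lowest of the 10, at 0.0371 ± 0.0304.

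**Figure D1:**
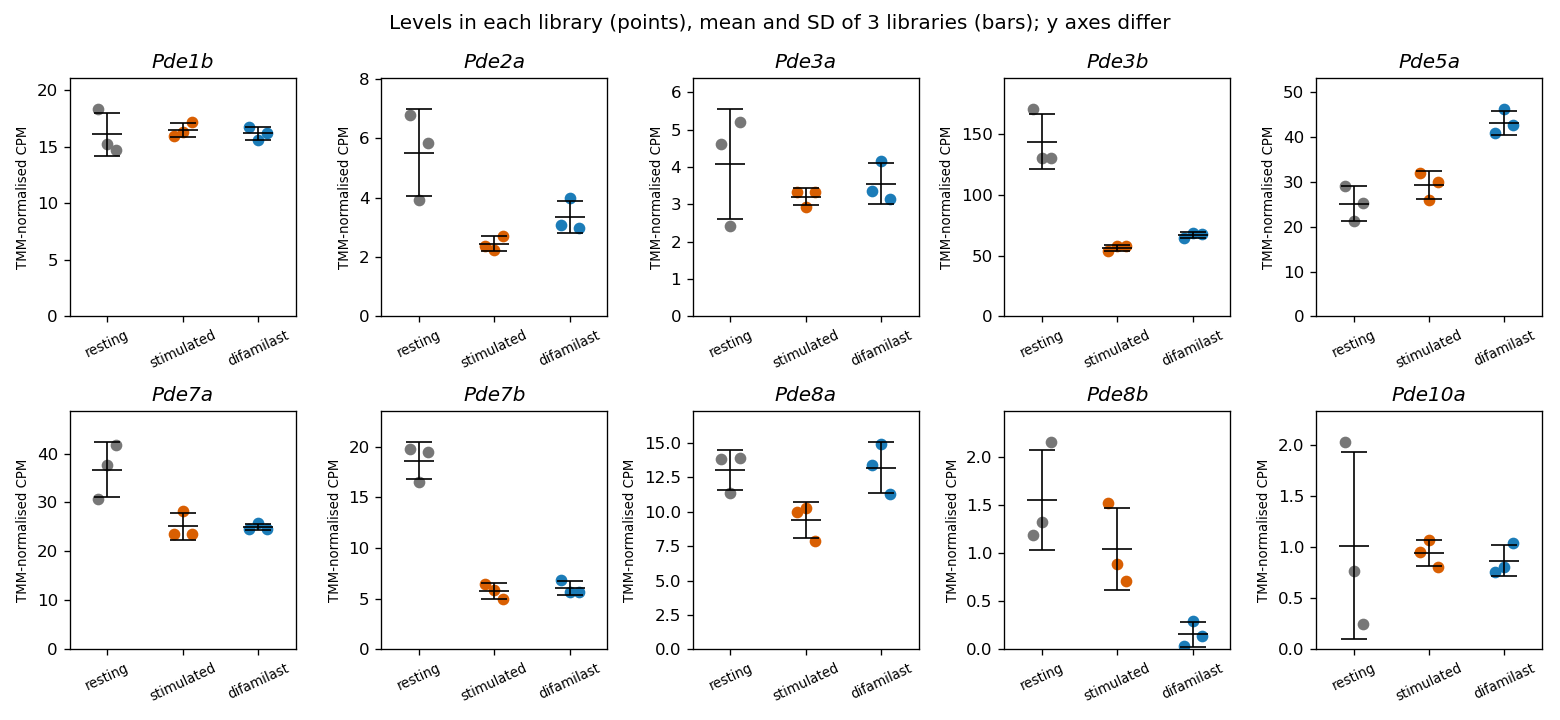
TMM-normalised CPM of each of the 10 genes (vertical axes from 0, with a different scale per gene) in the 3 resting, 3 stimulated and 3 difamilast libraries; points are libraries, bars the mean and SD. Pde3b and Pde7b were low in all 6 libraries that received cytokines, Pde5a was highest in the 3 difamilast libraries, and Pde8b was lowest there.

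Stimulated and resting cells, both in DMSO, were set against each other to see the response of these genes to the cytokines. Of the 10 genes, 5 fell and 0 rose: Pde3b, Pde7b, Pde7a, Pde2a and Pde8a. Over all tested genes 16.4% were called lower, 15.3% higher and 31.7% in either direction. With library totals alone 41.0% were lower and 6.21% higher, and 7 of the 10 genes were lower and 0 higher. The median log2 fold change of the 10 genes was -0.51, against 0.06 over all tested genes and -0.02 over the 7451 tested genes whose transcripts span the same lengths (3258 to 12302 bases). The same 5 genes had groups that did not overlap, all lower, against 20.6% of tested genes lower without overlap. At an unadjusted p under 0.05 the same edgeR test gives 0 higher, and DESeq2 also calls 0 higher.

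The cAMP-hydrolysing genes Pde3b and Pde7b had the clearest falls. Pde3b, which encodes the PDE3 enzyme best known for its control by insulin in fat and liver, was at 170.1, 130.4 and 131 CPM in the resting libraries and 53.6, 57.9 and 57.7 in the stimulated ones. Every stimulated library lay below every resting library. Its log2 fold change was -1.35 ± 0.12 (SE; adjusted p = 4.04e-07, edgeR quasi-likelihood F-test, Benjamini-Hochberg adjustment), 2.55-fold lower. Pde7b was at 19.8, 16.5 and 19.5 CPM in resting and 6.47, 5.82 and 4.96 in stimulated libraries, again with no overlap. It was 3.26-fold lower (log2 fold change -1.71 ± 0.17 SE, edgeR adjusted p = 2.01e-06). Both calls held in all 16 alternatives, with log2 fold changes from -1.88 to -1.24 for Pde3b and from -2.24 to -1.60 for Pde7b.

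Pde7a, the PDE7 isoform known from T cells, fell less than its paralogue. Its resting libraries were at 30.6, 37.7 and 41.7 CPM and its stimulated libraries at 23.6, 28.3 and 23.5. The gap between the lowest resting and the highest stimulated library was small. It was 1.45-fold lower (log2 fold change -0.54 ± 0.14 SE, edgeR adjusted p = 0.00771), and the call held in all 16 alternatives (adjusted p from 1.39e-05 to 0.0446). Pde8a, a cAMP-specific enzyme of very high affinity, was at 13.8, 11.4 and 13.9 CPM in resting and 9.99, 10.3 and 7.88 in stimulated libraries. Its groups did not overlap, and its log2 fold change of -0.48 ± 0.17 (SE, edgeR adjusted p = 0.0498) lay at the threshold. The call was lost in 10 of 16 alternatives: without any single stimulated library (adjusted p = 0.0598, 0.068 and 0.208 without replicates 1, 2 and 3), without resting replicate 1 (0.0765) or 3 (0.0911), without difamilast replicate 1 (0.0666) or 2 (0.0613), with the replicate block (0.0595), in the fit of both groups alone (0.0594) and with the length trend removed (0.0557).

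Among the enzymes that accept both nucleotides, Pde2a fell and Pde1b and Pde10a did not pass the test. Pde2a was at 6.78, 3.91 and 5.83 CPM in resting and 2.38, 2.23 and 2.72 in stimulated libraries, without overlap. It was 2.22-fold lower (log2 fold change -1.15 ± 0.25 SE, edgeR adjusted p = 0.00233; 4.55e-05 to 0.0169 over the alternatives). Its value is uncertain as a measure of Pde2a alone, because 64.3% of its annotated exon bases are shared on the same strand with Gm45837. This predicted gene lay between 0.267 and 1.05 CPM, with means of 0.909 in resting, 0.379 in stimulated and 0.602 in difamilast cells. Pde1b was level, with means of 16.1 ± 1.94, 16.5 ± 0.644 and 16.2 ± 0.586 CPM (SD, n = 3) in resting, stimulated and difamilast cells. The 95% interval of its log2 fold change with stimulation ran from -0.27 to 0.33. With library totals alone it would be -0.50 (adjusted p = 0.0143), close to the -0.47 of the median gene at that scaling.

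The cGMP-specific Pde5a was at 29.1, 21.2 and 25.2 CPM in resting and 32.1, 26.0 and 30.1 in stimulated libraries, and the groups overlapped. Its log2 fold change with stimulation was 0.22 ± 0.14 (SE, edgeR adjusted p = 0.257), and -0.31 (adjusted p = 0.118) with library totals alone. The low genes Pde3a, Pde8b and Pde10a did not pass either (edgeR adjusted p = 0.425, 0.368 and 0.804). Pde3a, at 2.42 to 5.19 CPM in resting and 2.94 to 3.34 in stimulated libraries, had a 95% interval of -0.89 to 0.27. Pde10a rested on 2 to 29 counts per resting library. Its log2 fold change of -0.19 turned to 0.67 (adjusted p = 0.366) without resting replicate 1, the library with 29 counts.

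Markers of basophils and of other cells moved in the same comparison, in both directions. Of 10 basophil markers 6 rose and 1 fell, of 6 neutrophil markers 2 rose and 1 fell, and the NK and T cell and B cell lists had 1 riser each, beside 15.3% of all tested genes called higher and 16.4% lower. Of 7 monocyte and macrophage markers 6 were lower and 0 higher with stimulation, with a summed level of 5639 to 6994 CPM in resting and 4278 to 4527 in stimulated libraries, and of 6 megakaryocyte and platelet markers 3 were lower and 0 higher (474 to 679 and 294 to 429 CPM). Of 5 mast cell markers 1 was lower and 0 higher (467 to 774 CPM summed in resting and 739 to 809 in stimulated libraries). Of 5 dendritic cell markers 1 was lower and 0 higher (1483 to 1896 and 1670 to 1778 CPM). The eosinophil list and the stromal, smooth muscle and endothelial list had 1 riser and 1 faller each, and the erythroid list had 0 of either. None of the markers in these lists was at 0 in every library. The part of any of these cells in the falls of Pde3b, Pde7b, Pde7a, Pde2a and Pde8a was not tested.

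**Figure D2:**
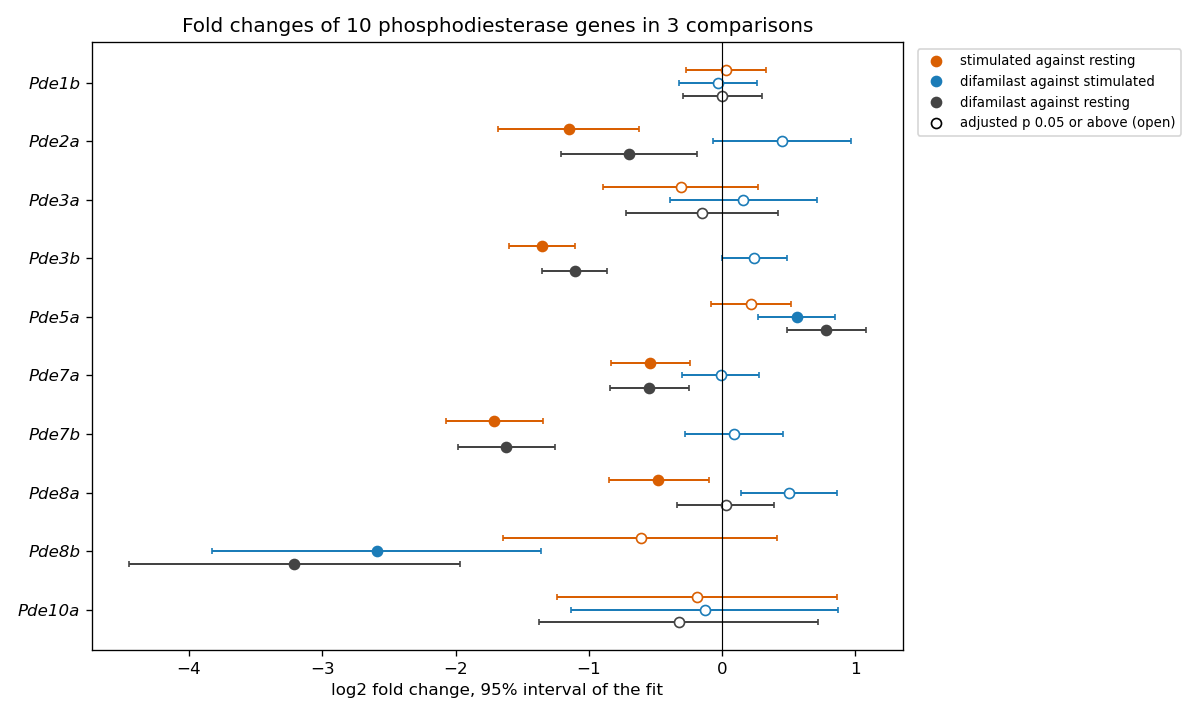
Log2 fold change (horizontal axis) of each gene in 3 comparisons, with the 95% interval of the edgeR fit; filled points have an adjusted p under 0.05. Pde3b, Pde7b, Pde7a and Pde2a lie left of 0 against resting cells with and without difamilast, while Pde5a lies right of 0 and Pde8b far left of 0 against stimulated cells.

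Cytokine-treated cells with and without difamilast were compared to see whether a PDE4 inhibitor went with altered transcripts of the other phosphodiesterases. Of the 10 genes 1 rose, Pde5a, and 1 fell, Pde8b. Over all tested genes 2.21% were called higher and 1.24% lower, and 3.44% in either direction. With 10 members, this count of 2 is too small for a statement about the group. The median log2 fold change of the 10 genes was 0.12, against -0.003 over all tested genes and 0.05 over tested genes of the same transcript lengths. Groups did not overlap for Pde2a, Pde3b, Pde5a and Pde8a, which were higher with difamilast (12.2% of tested genes), and for Pde8b, which was lower (12.6%). Of 10 basophil markers 1 rose and 1 fell in edgeR's adjusted test. In all other marker lists 0 passed that test and 0 passed in DESeq2. At an unadjusted edgeR p under 0.05, 1 of 6 megakaryocyte and platelet markers and 1 NK and T cell marker were higher. At that level 1 mast cell and 1 B cell marker were lower, and 0 of 7 monocyte and macrophage markers passed. Itga2b, of the megakaryocyte and platelet list, lay at 165 to 176 CPM in stimulated and 214 to 233 in difamilast libraries. Kit, of the mast cell list, lay at 38.5 to 42.8 and 29.3 to 33.1 CPM. The part of any of these cells in the changes of Pde5a and Pde8b was not tested.

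Pde5a, which degrades cGMP and is the target of sildenafil, was at 40.9, 46.2 and 42.7 CPM in difamilast libraries against 32.1, 26.0 and 30.1 in stimulated ones. All difamilast libraries were above all others, resting libraries included. It rose 1.48-fold (log2 fold change 0.56 ± 0.14 SE, edgeR adjusted p = 0.0317). The size was steady at 0.48 to 0.63 over the alternatives, while the call was lost without stimulated replicate 1, 2 or 3 (adjusted p = 0.0751, 0.217 and 0.118) and without difamilast replicate 1 or 2 (0.0795 and 0.182). Adjusted p ran from 0.00281 to 0.217 over all of them.

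Pde8b, the PDE8 isoform known from endocrine tissue and brain, was a rare transcript. It had 17, 24 and 17 counts in the resting libraries, 16, 30 and 22 in the stimulated ones, and 1, 8 and 3 in the difamilast ones, although those were deeper than the resting libraries. In CPM these are 1.19, 1.32 and 2.15 in resting, 1.52, 0.891 and 0.714 in stimulated, and 0.0361, 0.292 and 0.142 in difamilast cells. Resting and stimulated libraries overlapped, and the difamilast libraries lay below both. Its fitted log2 fold change against stimulated cells was -2.59 ± 0.58 (SE, edgeR adjusted p = 0.0192). It was -3.47 without difamilast replicate 2 and -2.09 without difamilast replicate 1, the ends of its range over the alternatives. From the summed counts, 12 against 68, it was 5.75-fold lower, with an exact 95% interval of 3.09 to 11.7 that covers counting error only. The call was lost without stimulated replicate 1 or 2 (adjusted p = 0.082 and 0.0644) and without difamilast replicate 1 (0.100), and DESeq2 gave it no adjusted p. Over the other alternatives adjusted p was as low as 0.000332. An opposite-strand gene, Gm48420, shares 7.60% of its exon bases and lay at no more than 0.165 CPM.

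Pde8a, the abundant partner of Pde8b, was at 13.4, 14.9 and 11.3 CPM with difamilast against 9.99, 10.3 and 7.88 without. The groups did not overlap, and the log2 fold change of 0.50 ± 0.17 (SE, edgeR adjusted p = 0.149) did not pass in the reported fit or in any of 16 alternatives (0.0634 to 0.540). Pde3b was at 64.2, 68.3 and 68.0 CPM with difamilast against 53.6, 57.9 and 57.7 without, also with no overlap. Its log2 fold change was 0.24 ± 0.12 (SE, edgeR adjusted p = 0.350), with an unadjusted p of 0.0541. For Pde2a the values were 3.07, 3.98 and 2.99 CPM against 2.38, 2.23 and 2.72 (log2 fold change 0.45 ± 0.24 SE, edgeR adjusted p = 0.427).

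For Pde7a, Pde1b and Pde7b the intervals reached to both sides of no difference. Pde7a had means of 25.0 ± 0.643 CPM with difamilast and 25.1 ± 2.73 without (SD, n = 3), and its 95% interval ran from -0.30 to 0.28 in log2. Pde1b had an interval of -0.32 to 0.26, and Pde7b one of -0.28 to 0.46. The intervals of the rarer Pde3a (-0.39 to 0.71) and Pde10a (-1.13 to 0.87) were wider.

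Difamilast cells were also set directly against resting cells, which shares libraries with both comparisons above. Pde5a was higher and 5 of the 10 genes, Pde3b, Pde7b, Pde7a, Pde2a and Pde8b, were lower, beside 16.4% of tested genes called higher, 16.4% called lower and 32.8% in either direction. Groups did not overlap for 4 genes that were lower (19.8% of tested genes) and for Pde5a (23.0% higher), while those of Pde2a overlapped. With library totals alone 44.4% of tested genes were lower and 7.06% higher, and 7 of the 10 genes were lower and 0 higher. Pde3b was 2.15-fold lower (log2 fold change -1.10 ± 0.12 SE, edgeR adjusted p = 3.27e-06) and Pde7b 3.06-fold lower (edgeR adjusted p = 2.97e-06). Pde7a was 1.46-fold lower (edgeR adjusted p = 0.0067). Pde5a was 1.72-fold higher (edgeR adjusted p = 0.000492), and with library totals alone its log2 fold change was 0.27 in place of 0.78 (adjusted p = 0.164). Pde8b, with 12 summed counts against 58, was 9.12-fold lower by counts, with an exact 95% interval of 4.84 to 18.7. Its fitted log2 fold change of -3.21 was -4.08 without difamilast replicate 2. Pde8a was close to its resting level, with means of 13.2 ± 1.84 and 13.1 ± 1.44 CPM and an interval of -0.34 to 0.39. The call for Pde2a (1.63-fold lower, edgeR adjusted p = 0.0361) was lost without resting replicate 1 (0.140) or 3 (0.0691), without difamilast replicate 1 (0.116) or 3 (0.101), with the replicate block (0.0571) and when only these 2 groups were fitted (0.0596).

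Within each of the 3 families with 2 members here, ratios of the paralogues were compared. The ratios are of CPM with a prior of 2 counts, scaled to library size, added to each gene, which draws ratios of few counts towards 0. The log2 ratio of Pde7b to Pde7a within a library was -0.63, -1.19 and -1.09 in resting and -1.85, -2.26 and -2.22 in stimulated libraries. Its mean was lower by 1.14 on the log2 scale (-2.11 ± 0.23 against -0.97 ± 0.30, SD, n = 3), without overlap. For Pde3b to Pde3a the ratio was 5.18, 5.70 and 4.63 in resting and 3.97, 4.26 and 4.07 in stimulated libraries, with means of 5.17 ± 0.53 and 4.1 ± 0.15 and also without overlap. For Pde8b to Pde8a it was -2.64, -3.40 and -3.30 in stimulated and -6.70, -5.28 and -5.59 in difamilast libraries, and -3.44, -3.02 and -2.64 in resting ones. With 1, 8 and 3 counts of Pde8b, the difamilast values depend on that prior, and the plain count ratios there were -8.54, -5.68 and -6.31 in log2, against -2.71, -3.53 and -3.47 in stimulated libraries. The first 2 ratios differed without overlap between resting and stimulated cells and overlapped between stimulated and difamilast cells, and for Pde8b to Pde8a it was the other way round. A two-sided exact permutation test gave p = 0.1 for each of the separated contrasts, the smallest that 3 against 3 libraries can give, and 0.15 after adjustment over the 9 contrasts of 3 pairs.

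As a part of all phosphodiesterase transcripts in the table, the 10 genes held a smaller share in both cytokine-treated groups. Summed per kilobase over 23 listed genes, they held 47.4% ± 3.93 of the total in resting cells, 25.9% ± 0.153 in stimulated cells and 23.8% ± 0.964 in difamilast cells (SD, n = 3). The total includes Pde6d, a short transcript (1159 bases) that encodes no catalytic subunit. Pde6d gave 20.2 ± 6.52 of 97.1 CPM per kilobase in resting, 8.90 ± 1.43 of 102 in stimulated and 9.08 ± 0.830 of 130 in difamilast cells. The shares depend on counting it. The PDE4 genes held 24.7% ± 2.24, 55.3% ± 1.73 and 61.4% ± 1.13. The 10 genes summed to 46.0 ± 4.72, 26.6 ± 0.364 and 31.0 ± 0.986 CPM per kilobase, and the PDE4 genes to 23.9 ± 1.60, 56.6 ± 1.35 and 79.9 ± 1.72. Among PDE4 genes only Pde4b was called higher with stimulation and only Pde4b and Pde4d with difamilast against stimulated cells. Pde4b went from 9.46 ± 0.372 to 50.3 ± 0.920 and 71.4 ± 1.48 CPM per kilobase. Pde4a (4.18, 1.87 and 1.55 CPM per kilobase) and Pde4d (9.40, 3.37 and 5.79) fell with stimulation, and Pde4c, which passed in neither comparison, lay at 0.895 to 1.2. These shares describe chosen genes and carry no test, and transcript shares are not shares of enzyme activity.

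**Figure D3:**
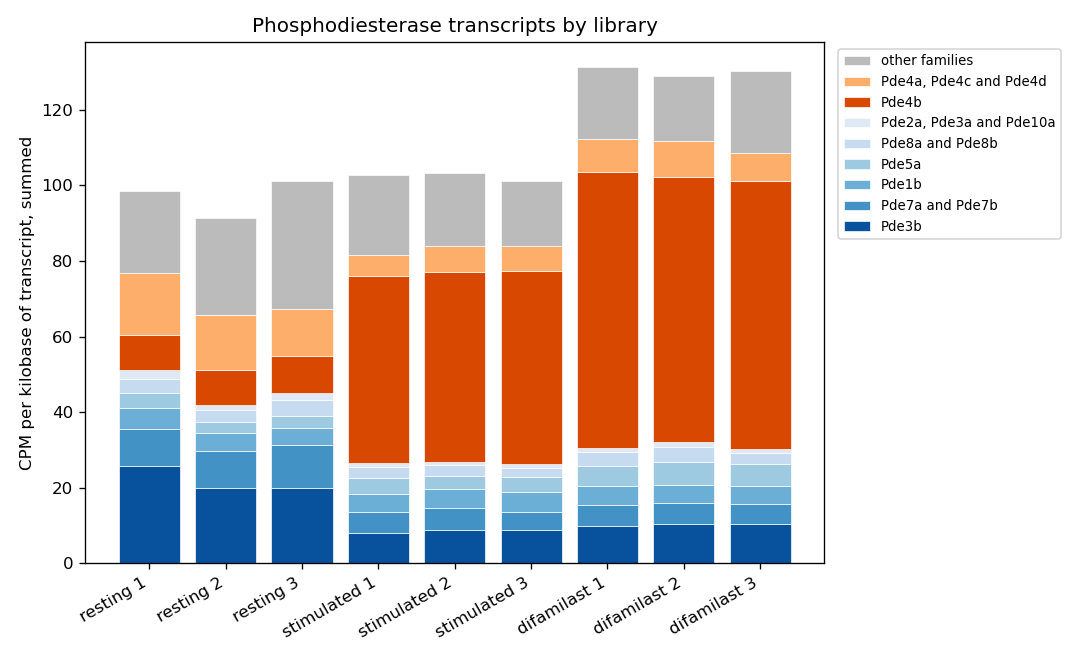
Summed CPM per kilobase of transcript (vertical axis from 0) of 23 phosphodiesterase genes in each of 9 libraries; blue segments are the 10 genes outside PDE4, orange segments PDE4 and grey the other families. The blue stack was 41.8 to 51.1 in resting libraries and 26.2 to 32.1 in the others, while the Pde4b segment grew.

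Of 10 further phosphodiesterase genes listed, 9 were in the table and 7 were tested. With stimulation 1 rose and 1 fell, beside 15.3% and 16.4% of all tested genes, and with difamilast against stimulated cells 0 passed edgeR's adjusted test, with 0 at an unadjusted p under 0.05 and 0 in DESeq2. Pde6d, which encodes a carrier of prenylated proteins and not a catalytic subunit, fell from 23.5 ± 7.55 to 10.3 ± 1.66 CPM (SD, n = 3; edgeR adjusted p = 0.00045). Pde6a, known as a subunit of the rod photoreceptor enzyme, rose from 16.1 ± 1.47 to 25.0 ± 1.14 CPM (edgeR adjusted p = 0.00861). Pde9a and Pde6b had at most 1 and 3 counts in a library.

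Genes that make, sense or export cyclic nucleotides were counted in the same way, beside the 16.4% of all tested genes called lower and 15.3% called higher with stimulation, and no list was tested against other genes. Of 7 tested adenylyl cyclases, the enzymes that form cAMP, 2 fell and 0 rose: Adcy7, from 34.7 ± 8.58 to 21.0 ± 1.10 CPM (edgeR adjusted p = 0.00309), and Adcy9, from 3.36 ± 2.01 to 1.04 ± 0.0794 (edgeR adjusted p = 0.00572). Of 12 tested effector and efflux genes 6 fell and 0 rose. Among them were the protein kinase A catalytic subunit gene Prkacb, from 252 ± 22.9 to 44.4 ± 1.46 CPM, and the cyclic nucleotide exporters Abcc5, from 36.5 ± 6.61 to 12.1 ± 0.889, and Abcc4, from 11.7 ± 1.95 to 3.58 ± 0.843 (edgeR adjusted p = 1.45e-10, 1.38e-06 and 1.8e-05). Of 9 tested guanylyl cyclase and nitric oxide synthase genes 1 fell, the soluble cyclase subunit Gucy1a1 (3.63 ± 0.896 to 1.99 ± 0.669 CPM, edgeR adjusted p = 0.0418), and 1 rose, the natriuretic peptide receptor Npr1. Npr1 had 0, 1 and 2 counts in resting and 10, 24 and 28 in stimulated libraries. With difamilast against stimulated cells 0 genes of these 3 lists passed edgeR's adjusted test and 0 passed in DESeq2, while 1 adenylyl cyclase, 1 gene of the guanylyl cyclase list and 2 effector or efflux genes had an unadjusted edgeR p under 0.05.

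**Figure D4:**
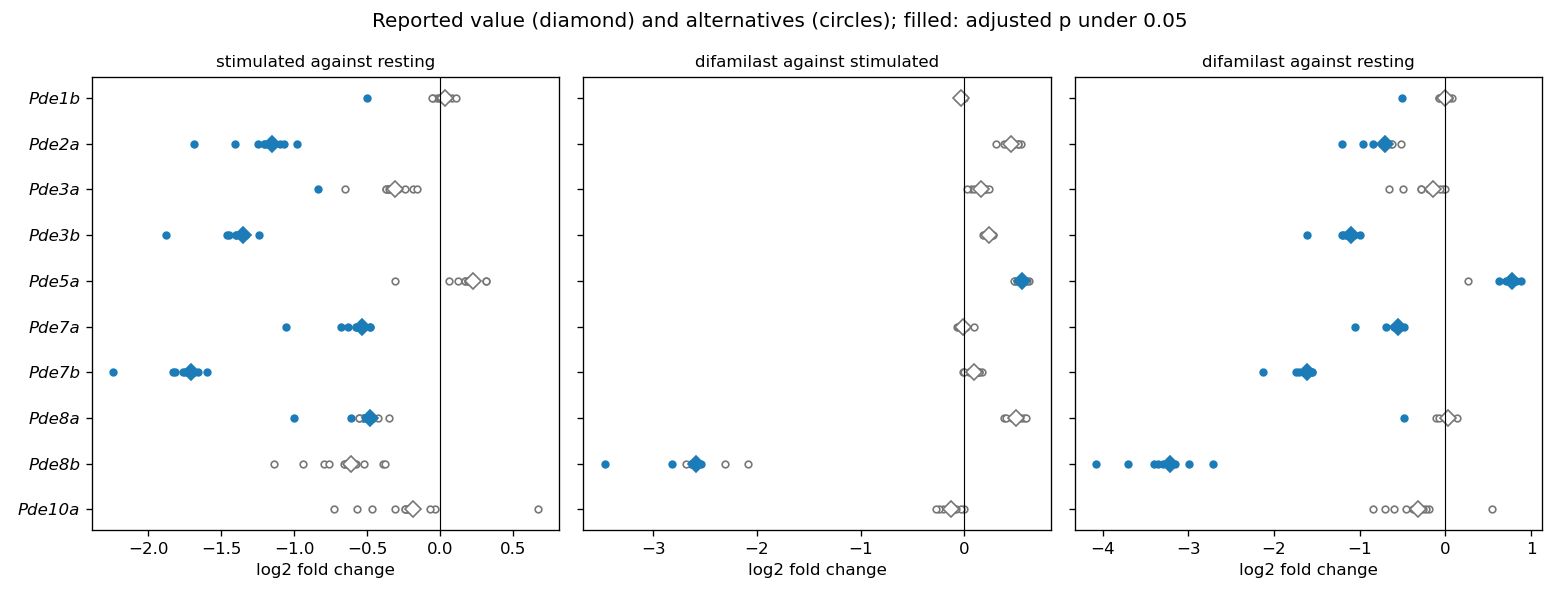
Log2 fold change (horizontal axis) of each gene in the 3 comparisons under the reported fit (diamond) and each alternative (circles); filled symbols have an adjusted p under 0.05. Pde3b, Pde7b and Pde7a stay filled against resting cells in every setting, while Pde5a and Pde8b lose the call in some settings in the comparison of difamilast with stimulated cells.

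Over the 9 libraries, the genes whose log2 CPM followed each changed member most closely were looked up among 9408 genes averaging at least 5 CPM. For Pde3b they were Gpr108, the carnitine palmitoyltransferase gene Cpt1a and Acpp (Pearson r = 0.996, 0.996 and 0.995), and Cpt1a, for instance, had means of 124, 49.5 and 59.3 CPM in resting, stimulated and difamilast cells. For Pde7b they were the chromatin remodeller Smarca2, the transcription factor Hlf and Slc10a7 (r = 0.995, 0.995 and 0.993). For Pde5a they were the peptide transporter Slc15a2, the transcription factor Myb and the protease inhibitor Serpine2 (r = 0.974, 0.971 and 0.969), and Myb had means of 6.99, 9.21 and 17.1 CPM. For Pde7a they were Ap3s2, Ppp1r3d and Coq8b (r = 0.978, 0.977 and 0.975), and for Pde8a Ncaph2, Hs6st1 and Zfc3h1 (r = 0.967, 0.961 and 0.952). These values describe 9 libraries in 3 conditions that all genes share, and they rank genes by likeness without a test.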

How the data were processed

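The authors deposited 1 table of raw read counts per gene symbol for 9 bulk RNA-seq libraries (3 conditions, 3 libraries each; depths are in the text). Per the labels' protocols, poly(A) RNA was captured on oligo-dT beads and amplified by the TAS-Seq procedure before fragmentation and NovaSeq sequencing. No molecular identifiers are mentioned, so amplified copies may be counted, and the exact intervals of summed counts cover counting error only. Cutadapt 4.1, Bowtie2 2.4.5 and the build GRCm38 are listed in the submitters' processing notes. Which tool counted reads, on which annotation and with which strand setting is not given in the sources used here.

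Groups came from the sample titles. Genes were kept by filterByExpr, which asks for 15 counts in total and a minimum CPM in enough libraries. That minimum equals 10 counts in a library of median size. All 9 libraries were then fitted together in R 4.3.3 by the robust quasi-likelihood method of edgeR 4.0.16, with TMM factors and no covariate. The p-values of the fit had Benjamini-Hochberg adjustment over 21341 genes and were called at 0.05. Standard errors and the 95% intervals of fold changes come from that fit and rest on the spread between libraries. The analysis was repeated with RLE scaling, with DESeq2 1.42.0, without the filter, on only the 2 groups compared, with the replicate number as a block, after removal of a lowess trend (span 0.3) with transcript length, without each library in turn, and, added after the data were seen, library totals alone. Steps were tested on simulated counts in which every gene had the same relative spread and few genes changed. That setting is simpler than these data and does not test the scaling where many genes change. All members are named, with all PDE4 genes and up to 3 called genes of smallest p per other pathway list. The most alike genes are the 3 with the highest correlation of log2 CPM (prior count 2) for each changed member averaging at least 5 CPM, leaving out predicted genes, ribosomal protein genes and pseudogenes. The members and lists were chosen with earlier results of these data known. Lengths, positions and overlaps are from GENCODE vM21 (GRCm38), which gave a length for 96.8% of tested genes, and promoter sequences are from RefSeq (GRCm38.p6).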

Additional observations from a re-analysis of the deposited data

How the results depend on the processing

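Of 478 refits of a member's fold change, 419 kept their direction and their side of the threshold, 25 lost a call, 1 gained a call and 33 changed sign. The 25 lost calls belong to Pde8a, Pde5a, Pde8b and Pde2a and are given with those genes, and the call gained was Pde3a with library totals alone (-0.84, adjusted p = 0.0196). The sign changed only for values that were not called in the reported fit, although with library totals alone Pde1b (against resting cells, both comparisons) and Pde8a (difamilast against resting cells) then passed as lower. For stimulation it changed for Pde1b with DESeq2 (-0.02), RLE scaling (-0.01), library totals alone (-0.50) and without resting replicates 2 and 3 (-0.05 and -0.06; -0.06 to 0.11 over all libraries left out), for Pde5a with library totals alone (-0.31) and for Pde10a without resting replicate 1 (0.67; -0.57 to 0.67). For difamilast against stimulated cells it changed for Pde7a in 8 settings (0.00 to 0.09; -0.06 to 0.09 over all libraries left out; DESeq2, RLE scaling and library totals alone 0.01, no filter 0.02), for Pde7b without stimulated replicate 3 (-0.01) or difamilast replicate 1 (0.00; -0.01 to 0.17 over all libraries left out) and for Pde1b without stimulated replicate 3 (0.00). For difamilast against resting cells it changed for Pde1b (-0.03 with DESeq2, -0.02 with RLE scaling, -0.51 with library totals alone, and -0.08, -0.08, -0.03 and -0.02 without a library, range -0.08 to 0.08), Pde8a (0.00 with DESeq2 and RLE scaling, -0.48 with library totals alone, -0.11, -0.01 and -0.07 without a library, range -0.11 to 0.13), Pde3a without resting replicate 3 (0.00; -0.49 to 0.00) and Pde10a without resting replicate 1 (0.54; -0.70 to 0.54).

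With stimulation 4 to 7 members were called over the alternatives, and with difamilast against resting cells 5 to 7. With difamilast against stimulated cells the count of 2 became 1 with DESeq2 and 0 to 2 with a library left out (0 without stimulated replicate 1 or 2 or difamilast replicate 1). Over all genes that comparison gave 735 calls, 1115 with DESeq2, 1351 without the filter, 1673 from the 2 groups alone, and 347 (without difamilast replicate 2) to 1693 (without resting replicate 1) with a library left out; difamilast against resting cells gave 7001, and 10979 with library totals alone. With the replicate block 4, 2 and 5 members were called in the 3 comparisons, in place of 5, 2 and 6. Deviations of same-numbered libraries from their group means correlated at -0.396 to 0.419, over 0.1 in 2 of 9 pairs. Those of differently numbered libraries correlated at -0.527 to 0.592, over 0.1 in 6 of 18 pairs. Deviations of 3 libraries sum to 0 within a group, so these correlations are tied to each other and cannot decide whether libraries were paired. Not divided by length, the members' share of phosphodiesterase transcripts was 63.1%, 33.8% and 31.1% in resting, stimulated and difamilast cells. The causes of these shifts were not tested. Depth limits Pde8b and Pde10a most, with as few as 1 and 2 counts in a library.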
